A study of Mus musculus with 4 samples.

Results

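The fibroblast growth factor (FGF), platelet-derived growth factor (PDGF), vascular endothelial growth factor (VEGF) and insulin-like growth factor (IGF) genes were examined in sciatic nerve. They were taken by symbol, as those that begin with Fgf, Pdgf, Vegf or Igf, without pseudogenes and what the rule leaves out. This gave 63 of the 50593 genes in the table. Of them, 51 encode ligands, receptors and binding proteins or the FGF homologous factors, and 3 are antisense transcripts. The other 9 were placed in none of these roles and came in by symbol alone. By the labels, RNA came from 4 mice of strain 129S1/SvImJ aged 6 months, 2 in the HSF V30M group and 2 in the HSF WT group. Both groups are heterozygous for a deletion of Hsf1, the gene of heat shock factor 1. On top of this, HSF V30M animals have a human transthyretin (TTR) V30M transgene and lack the mouse Ttr gene, whereas HSF WT animals have no transgene. The promoter that drives the transgene is not given in the sources used here.

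These families signal from outside the cell to receptor tyrosine kinases. FGFs bind their receptors together with heparan sulphate, PDGFs drive fibroblasts and the cells that wrap vessels, and VEGFs act on blood and lymph vessels. IGFs support growth and survival, while their binding proteins hold them in the extracellular space. In peripheral nerve, IGF and PDGF chains are known as survival signals of Schwann cells, the glia that wrap axons.

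The table gives FPKM, which is the number of fragments corrected for transcript length and library depth, as 1 value per gene for each group and none per mouse. No spread between mice can therefore be given, and no test between the groups was made. Every pair of FPKM below is written as HSF V30M against HSF WT. A gene was counted as past the fold where FPKM + 1 differed over 1.5-fold between the groups, among genes averaging 1 FPKM or more. Ratios with a 95% counting interval are those of FPKM itself, HSF V30M over HSF WT. The interval was worked back from the smallest number of fragments, that for the shortest coding transcript, and covers counting error only. It is therefore wider than needed where the fragments came from longer transcripts, and an interval that holds 1 can follow from this. Mouse Ttr measured 6.10 against 0 FPKM. By its label HSF V30M lacks this gene and carries the human one, and which of them these fragments came from was not tested, so Ttr was not used to check the labels and all directions below are those of the labels. Hsf1, deleted from 1 copy in both groups, measured 7.94 against 15.0 FPKM. The Schwann cell genes Mbp (3854 against 3441 FPKM) and Pmp22 (2252 against 2440 FPKM) were abundant in both groups, and none of 12 Schwann cell markers is at 0.

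Of the 63 genes, 41 averaged 1 FPKM or more, 17 lay below and 5 are listed at 0 in both groups. Only Igfbp2 and Vegfb were past the fold, both higher in HSF V30M. This is 4.88% of the 41 genes, against 16.7% of the 15620 genes in the table above the same minimum. By direction, 8.22% of all genes were past the fold upwards and 8.44% downwards. The count depended on the pseudocount of 1: with 0.1 in its place, 5 of the 41 were past the fold, 3 upwards and 2 downwards (Fgf10 and Fgfbp1), against 21.7% of all genes. With no pseudocount it was 6 of the 41, 4 upwards and the same 2 downwards. The share of all genes was then 19.9%, over the 15121 that are above 0 in both groups. With a fold of 2, Igfbp2 alone was past it, or 2.44%, against 7.92% of all genes, 3.98% upwards and 3.94% downwards. Among the 25 members averaging 5 FPKM or more, Vegfb alone was past 1.5-fold, or 4.0%, against 13.5% of all such genes, 7.17% upwards and 6.33% downwards. At a pseudocount of 1 each of these shares of members was below that of all genes, and the difference was not tested.

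The median log2 ratio of FPKM + 1 over the 41 genes was 0.04, with 21 above 0 and 20 below, and that of all genes was 0.00. Their median distance from 0 was 0.27, against 0.23 for all genes. Within 1.2-fold lay 19 of the 41 genes, or 46.3%, against 55.8% of all genes. The counting interval left out a ratio of 1 in 21 of the 41, or 51.2%, against 35.0% of 14612 genes for which it could be computed. By direction this was 29.3% of members upwards against 17.7% of all genes, and 9 of the 41 downwards against 17.3%. These shares move with the number of fragments a gene has and the length of its shortest coding transcript. They say nothing of the spread between mice.

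**Figure D1:**
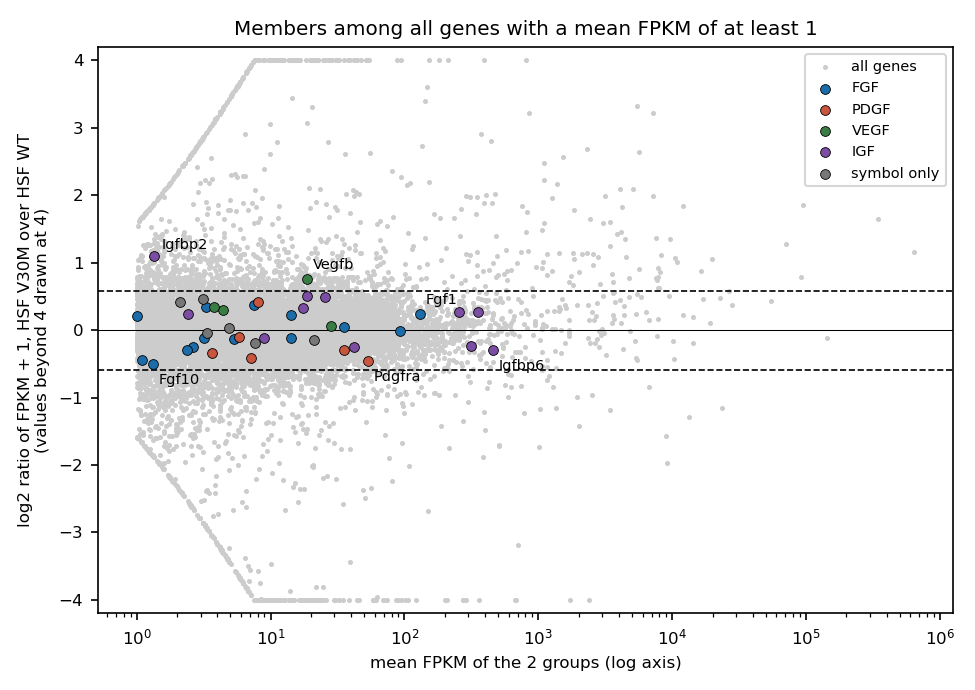
Each point is 1 gene, placed by the mean FPKM of both groups (log axis) and the log2 ratio of FPKM + 1, HSF V30M over HSF WT; grey points are the 15620 genes averaging 1 FPKM or more, coloured points the 41 members by family, and dashed lines the 1.5-fold limits. Among the coloured points only Igfbp2 and Vegfb lie beyond the dashed lines.

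By level, the IGF binding proteins made up most of the RNA of these families. They held 68.7% of the summed FPKM of the 63 genes in HSF V30M and 69.7% in HSF WT. The receptor-binding FGF ligands followed with 9.97% against 9.0%, and the FGF receptors with 5.90% against 5.65%. The PDGF receptor genes held 2.53% against 3.47%, and the VEGF ligands 3.08% against 2.39%. In total, the 63 genes summed to 2024.5 against 2033.9 FPKM, so that the sums of the groups were close.

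**Figure D2:**
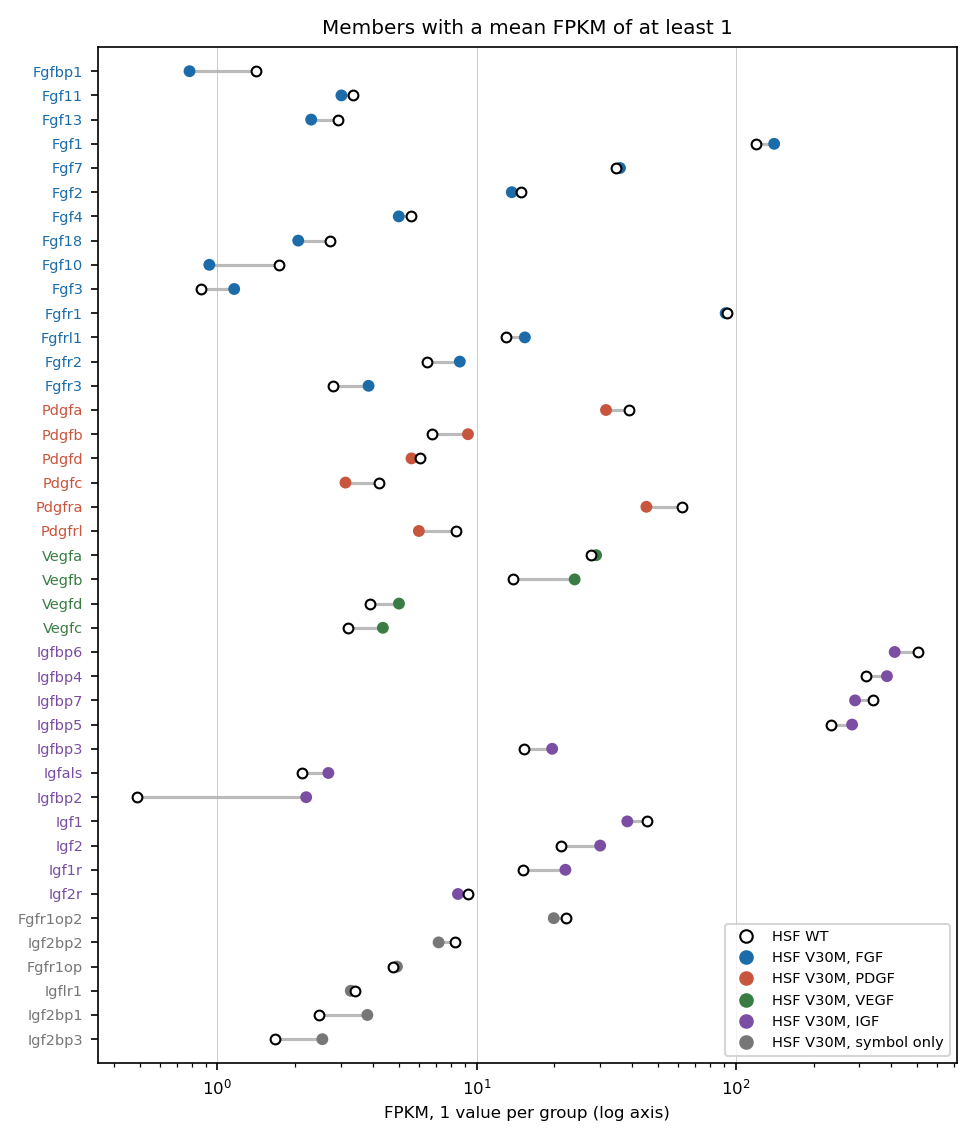
The FPKM of the 41 members averaging 1 or more is shown on a log axis, open circles for HSF WT and filled circles for HSF V30M, 1 value per group. Igfbp6, Igfbp4, Igfbp7 and Igfbp5 stand between 233 and 506, and the widest gap is that of Igfbp2, 2.20 against 0.488.

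Igfbp2 encodes a secreted protein that binds both IGFs and prefers IGF2. In GRCm38 its gene (ENSMUSG00000039323) spans 72824503 to 72852474 of chromosome 1, plus strand. It measured 2.20 against 0.488 FPKM, which stands for 38 to 62 fragments against 6 to 11. The FPKM ratio was 4.51 (95% counting interval 1.89 to 13.1), and FPKM + 1 differed 2.15-fold. Apart from Igfbp1 it was the lowest of the binding protein genes in HSF WT, and few fragments stand behind its value there.

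Vegfb encodes VEGF-B, which binds VEGF receptor 1 (Flt1). The gene (ENSMUSG00000024962) spans 6982473 to 6987651 of chromosome 19, minus strand. Vegfb measured 23.9 against 13.8 FPKM, or 497 to 662 fragments against 204 to 310. The FPKM ratio was 1.74 (95% counting interval 1.47 to 2.05), and FPKM + 1 differed 1.69-fold.

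The 250 bases before the RefSeq start of both genes (build GRCm38.p6) are shown because these were the only members past the fold. Igfbp2 has 2 such windows in the RefSeq table, and the one nearest to its GENCODE start was taken. Capitals mark GC boxes, GGGCGG on either strand, to which factors of the Sp family bind. The first stretch is chr1:72824230-72824479 on the plus strand, before a RefSeq start that lies 23 bases upstream of the GENCODE start, and the second is chr19:6987652-6987901 on the minus strand, each printed 5′ to 3′ along its gene.
Igfbp2: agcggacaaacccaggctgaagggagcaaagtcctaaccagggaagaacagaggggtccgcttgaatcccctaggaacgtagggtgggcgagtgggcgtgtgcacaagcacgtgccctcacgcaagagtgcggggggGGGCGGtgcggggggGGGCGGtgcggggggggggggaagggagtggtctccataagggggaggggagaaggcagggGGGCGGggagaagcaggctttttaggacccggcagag
Vegfb: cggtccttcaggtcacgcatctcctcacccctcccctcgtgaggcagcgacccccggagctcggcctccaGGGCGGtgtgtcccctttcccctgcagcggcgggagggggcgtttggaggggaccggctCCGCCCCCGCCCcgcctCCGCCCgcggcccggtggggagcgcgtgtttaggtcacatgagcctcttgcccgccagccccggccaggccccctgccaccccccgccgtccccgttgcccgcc
The Igfbp2 stretch holds 3 GC boxes and is 67.2% G or C, and the Vegfb stretch holds 4 and is 76.4% G or C. Neither holds TATAAA, the TATA box, or GAANNTTC, a core of the heat shock element, on either strand. RefSeq windows of this length were found for 50 of the 63 genes, 66 windows in all. GC boxes were in 53.0% of these and in 32.7% of all 32851 windows, TATA boxes in 10.6% and 12.4%, and heat shock element cores in 9.09% and 6.69%. The 6 windows with such a core belong to Fgf3, Fgf5, Fgf12, Igfbp5, Igfl3 and Pdgfa. Fgf3, Igfbp5 and Pdgfa were within the fold, while Fgf5, Fgf12 and Igfl3 were under the minimum and could not be counted. A link between these cores and the ratios was not tested. A match describes letters in a window and does not show binding.

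The IGF ligands differed in direction, and neither was past the fold. Igf1, the ligand that mediates growth hormone action, measured 38.2 against 45.4 FPKM, a ratio of 0.842 (95% counting interval 0.70 to 1.01). Igf2, an imprinted gene for the ligand of fetal growth, measured 30.02 against 21.1 FPKM, a ratio of 1.42 (1.03 to 1.99). Igf2 shares exonic sequence with Igf2os on the opposite strand, and whether counting used strand is not given in the sources used here. Igf2os itself was near 0, with 0.0300 against 0.0105 FPKM.

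Among the IGF receptors, Igf1r encodes the tyrosine kinase that both ligands bind. Igf1r measured 22.04 against 15.2 FPKM, a ratio of 1.45 (95% counting interval 1.39 to 1.52). Its FPKM + 1 differed 1.43-fold, which made it the member nearest to the limit without passing it. Igf2r, for the receptor that takes up and clears IGF2, measured 8.48 against 9.23 FPKM, a ratio of 0.918 (0.852 to 0.990).

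The most abundant binding protein genes were within the fold and split by direction. Igfbp6, whose protein prefers IGF2, had the highest level of all members and measured 412 against 506 FPKM, a ratio of 0.813 (95% counting interval 0.788 to 0.840). Igfbp7, whose product binds IGFs weakly, measured 289 against 341 FPKM, a ratio of 0.849 (0.817 to 0.883). Both were the lower in HSF V30M. Igfbp4, an inhibitor of IGF action, measured 384 against 320 FPKM, a ratio of 1.202 (1.13 to 1.28). Igfbp5, which binds the extracellular matrix, measured 282 against 233 FPKM, a ratio of 1.21 (1.19 to 1.23). The order by level was thus Igfbp6, Igfbp7, Igfbp4 and Igfbp5 in HSF WT, and Igfbp6, Igfbp4, Igfbp7 and Igfbp5 in HSF V30M. At least 1426 fragments stand behind each of these values.

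The other genes of the binding group were less abundant. Igfbp3, for the main IGF carrier of blood plasma, measured 19.6 against 15.3 FPKM, a ratio of 1.28 (95% counting interval 1.12 to 1.46). Igfals, for the acid-labile subunit that joins this carrier, measured 2.68 against 2.11 FPKM, and its interval of 0.956 to 1.69 held 1. Igfbp1, known from liver, was at the limit of detection with 0 against 0.0489 FPKM, the worth of 1 fragment in HSF WT. Of the 8 genes, 7 averaged 1 FPKM or more, 5 with a ratio above 1 and 2 below, and Igfbp2 was the only one past the fold. This is 14.3% of the 7, near the 16.7% of all genes.

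All 4 VEGF ligand genes had ratios above 1, as did 7876 of all 15620 genes averaging 1 FPKM or more. Vegfa, for the main signal of vessel growth, measured 29.0 against 27.7 FPKM, a ratio of 1.05 (95% counting interval 0.836 to 1.31). Vegfc, for a ligand of lymph vessels, measured 4.35 against 3.19 FPKM, with an interval of 0.745 to 2.57 that held 1. Vegfd, whose product acts on the same receptors, measured 5.02 against 3.87 FPKM, a ratio of 1.30 (1.02 to 1.65). Vegfa and Vegfb were the highest of the 4 in both groups, and Vegfb came closer to Vegfa in HSF V30M, where they stood at 29.0 and 23.9 FPKM, than in HSF WT, where they stood at 27.7 and 13.8 FPKM.

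On the receptor side, 6 genes were listed for VEGF receptors, co-receptors and the related ligand Pgf. Of them 1 was past the fold, or 16.7%, against 16.7% of all genes. This was Flt1, the receptor of VEGF-B, with 10.1 against 5.77 FPKM, a ratio of 1.75 (95% counting interval 1.58 to 1.93). Kdr, for the main signalling receptor of VEGF-A, measured 7.32 against 7.72 FPKM, and its interval of 0.857 to 1.05 held 1. The neuropilin co-receptors were the highest of the list, Nrp2 with 37.1 against 35.8 FPKM and Nrp1 with 27.6 against 25.5 FPKM. Of 8 endothelial markers, Vwf (52.5 against 27.3 FPKM) and Cldn5 (100.2 against 57.9 FPKM) were past the fold upwards, none was past it downwards, and none is at 0. The list was mixed in direction, 6 genes with a ratio above 1 and 2 below, among them Pecam1 with 44.9 against 56.5 FPKM, a ratio of 0.794 (95% counting interval 0.717 to 0.880). Its median log2 ratio was 0.27, and it summed to 362 against 278 FPKM. The part of endothelial RNA in the values of Vegfb and Flt1 was not tested. In whole nerve, fewer cells of a type cannot be told apart from less RNA per cell.

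Of the 6 PDGF genes, 5 had ratios below 1, as did 7744 of all 15620 genes averaging 1 FPKM or more. None of the 6 was past the fold, against 16.7% of all genes, and a lean of the family was not tested. Pdgfra, for a PDGF receptor and a mark of fibroblasts, was the most abundant with 45.3 against 62.3 FPKM, a ratio of 0.726 (95% counting interval 0.604 to 0.874). Pdgfrl, for a secreted protein that resembles the receptor, measured 5.99 against 8.35 FPKM, a ratio of 0.717 (0.578 to 0.890). Both had larger shifts of FPKM + 1 than any PDGF ligand, with log2 ratios of -0.45 and -0.42.

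Among the ligands, Pdgfa measured 31.6 against 38.9 FPKM, a ratio of 0.812 (95% counting interval 0.730 to 0.903), and its transcripts overlap those of 6330403L08Rik on the other strand. Pdgfc measured 3.12 against 4.19 FPKM, a ratio of 0.744 (0.615 to 0.902). Pdgfd measured 5.61 against 6.07 FPKM, and its interval of 0.743 to 1.153 held 1. The C and D chains must be cut by proteases before they can bind, unlike the A and B chains, which are cut inside the cell. Pdgfb, made largely by endothelium to recruit pericytes, measured 9.27 against 6.72 FPKM, and its wide interval of 0.773 to 2.54 held 1. That interval uses the smallest numbers of its ranges, 37 to 651 fragments against 19 to 383. Pdgfb was the only PDGF gene with a ratio above 1.

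None of the 3 listed proteases that process these chains was past the fold, against 16.7% of all genes. Plat, for the protease that cuts the C chain, measured 36.8 against 38.3 FPKM, Furin 23.1 against 28.1 FPKM and Plau 16.6 against 25.2 FPKM. Plau came nearest to the limit, with a log2 ratio of -0.58. Among 8 fibroblast markers, Pi16 (42.4 against 83.0 FPKM) and Dpt (33.7 against 64.7 FPKM) were past the fold downwards, none was past it upwards, and none is at 0. The list split evenly, 4 genes with a ratio above 1 and 4 below, with a median log2 ratio of -0.07. Col1a1, for a collagen chain, measured 181 against 152 FPKM and the highest gene, Dcn, 1331 against 1320 FPKM. The list summed to 2320 against 2435 FPKM. Its part in the values of Pdgfra and Pdgfrl was not tested.

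**Figure D3:**
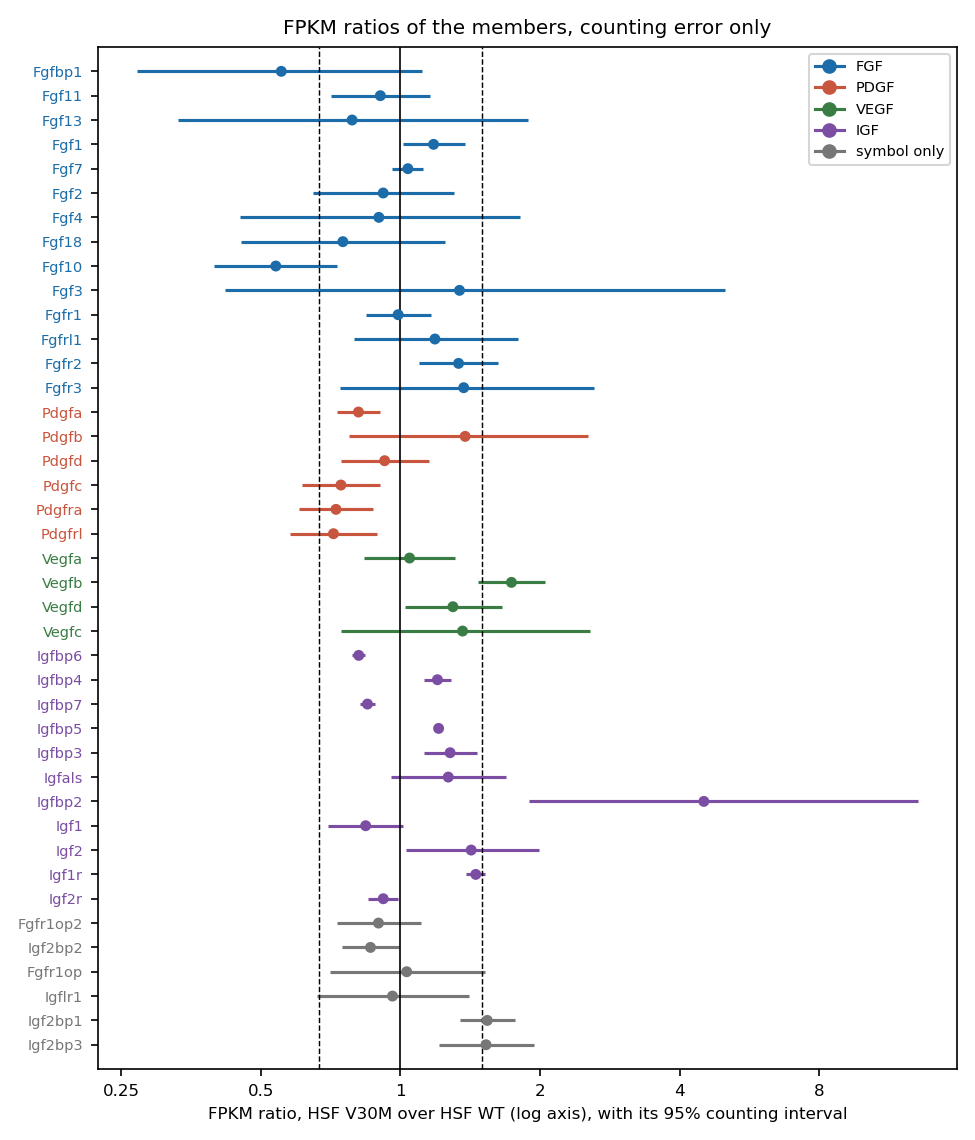
FPKM ratios of HSF V30M over HSF WT (log axis) are shown for the 41 members, with the 95% counting interval as a line, a solid line at 1 and dashed lines at 1.5-fold. The PDGF genes other than Pdgfb lie left of 1 and the VEGF genes right of it, with the widest interval of the binding proteins at Igfbp2 (1.89 to 13.1).

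In the FGF family, 1 ligand and 1 receptor led by level and neither was past the fold. Fgf1, for a ligand without a classical signal peptide that binds every FGF receptor, measured 141 against 120 FPKM, a ratio of 1.18 (95% counting interval 1.01 to 1.38). Fgfr1 measured 91.6 against 92.6 FPKM, a ratio of 0.989 (0.842 to 1.16). Fgf7, for a fibroblast product that acts on epithelium, measured 35.8 against 34.5 FPKM, and its narrow interval of 0.961 to 1.12 held 1. Fgf2, whose product like that of Fgf1 has no classical signal peptide, measured 13.7 against 14.9 FPKM. Its transcripts overlap those of Nudt6 on the other strand.

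The less abundant FGF ligands gave smaller numbers of fragments. Fgf10, for a mesenchymal ligand, measured 0.930 against 1.73 FPKM, or 79 to 93 fragments against 104 to 140. Its FPKM ratio of 0.539 (95% counting interval 0.397 to 0.729) was the lowest of the 41 genes, while FPKM + 1 differed 1.41-fold, within the limit. Fgf18 measured 2.05 against 2.73 FPKM, Fgf4 5.01 against 5.58 FPKM and Fgf3 1.16 against 0.865 FPKM, each with an interval that held 1. In all, 7 of 15 receptor-binding ligand genes averaged 1 FPKM or more. Fgf5, Fgf9, Fgf16, Fgf17 and Fgf22 lay below, the highest being Fgf9 with 0.670 against 1.199 FPKM, and Fgf6, Fgf8 and Fgf20 are listed at 0 in both groups.

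Of the other FGF receptors, Fgfr2 measured 8.62 against 6.46 FPKM, a ratio of 1.33 (95% counting interval 1.099 to 1.63). Fgfr3 measured 3.83 against 2.80 FPKM, with an interval of 0.741 to 2.62 that held 1. Fgfrl1, for a relative that lacks the kinase, measured 15.4 against 12.9 FPKM, and its interval of 0.795 to 1.79 held 1 as well. Fgfr4 measured 0.12 against 0 FPKM, with 8 to 10 fragments in HSF V30M, and 3 fragments in HSF WT would be worth 0.0622 FPKM. The HSF V30M value was 1.93-fold above this floor, at a level under the minimum used for the counts. The counting error of the HSF V30M value is not included, so this is no lower limit of the ratio.

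The endocrine FGFs, which act as hormones through klotho co-receptors, were at the limit of detection. Fgf15 measured 0.15 FPKM in HSF V30M and less than the worth of 1 fragment in HSF WT. Fgf21 measured 0 against 0.128 FPKM, and Fgf23 is listed at 0 in both groups. Klb, for the co-receptor of FGF21 and FGF15, was past the fold downwards with 1.93 against 5.20 FPKM, a ratio of 0.371 (95% counting interval 0.30 to 0.457). Of 8 adipocyte markers, Fabp4 (462 against 722 FPKM), Adipoq (319 against 543 FPKM) and Lep (7.47 against 33.4 FPKM) were past the fold downwards. None was past it upwards, and none is at 0. This is 37.5% of the 8, against 16.7% of all genes. The adipocyte list summed to 2528 against 3426 FPKM. The part of fat tissue in the values of Klb and Fgf10 was not tested.

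The FGF homologous factors stay inside the cell and bind voltage-gated sodium channels. Fgf11 measured 3.01 against 3.32 FPKM and Fgf13 2.30 against 2.92 FPKM, while Fgf14 (0.830 against 0.777 FPKM) and Fgf12 (0.170 against 0.101 FPKM) were lower in level. All 4 intervals held 1. Of the secreted FGF binding proteins, Fgfbp1 measured 0.780 against 1.41 FPKM, with an interval of 0.270 to 1.11 that held 1, and Fgfbp3 0.580 against 0.359 FPKM.

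Of other genes of these pathways, 48 of those listed are in the table and 43 averaged 1 FPKM or more. Past the fold were 5 upwards (Sdc3, Hs6st2, Flt1, Spred2 and Irs2) and 2 downwards (Klb and Pappa2). This is 16.3% of the 43, near the 16.7% of all genes, and their median log2 ratio was -0.02. The count depended on the pseudocount: with 0.1 or none it was 11 of the 43, against 21.7% and 19.9% of all genes. Sdc3, for a heparan sulphate proteoglycan, measured 89.4 against 51.8 FPKM, a ratio of 1.73 (95% counting interval 1.52 to 1.96). Hs6st2, for an enzyme that adds sulphate to heparan chains, measured 10.3 against 5.98 FPKM, a ratio of 1.73 (1.53 to 1.96). With Klb they were the 3 genes past the fold among 15 FGF co-receptors, adaptors and heparan sulphate genes. This is 20.0% of the 15, against 16.7% of all genes. Sdc3 and Sulf2 (50.8 against 46.6 FPKM) were the highest of them.

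Irs2, for an adaptor of the insulin and IGF1 receptors, measured 13.5 against 8.46 FPKM, a ratio of 1.60 (95% counting interval 1.47 to 1.74). Pappa2, for a protease that cuts IGFBP-5 and IGFBP-3, measured 0.550 against 1.70 FPKM, with an interval of 0.102 to 0.896 that rests on as few as 6 fragments in HSF V30M. They were the only ones past the fold among 8 IGF signalling partners, 1 upwards and 1 downwards. These 2 of 8 are a larger share than the 16.7% of all genes, and the difference was not tested. Htra1 (41.5 against 49.1 FPKM) and Grb10 (28.5 against 31.2 FPKM) were the highest of the list.

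The feedback and target genes that receptor tyrosine kinases switch on were mostly close between the groups. Of 11 such genes only Spred2, for an inhibitor of the Ras pathway, was past the fold, or 9.09%, against 16.7% of all genes. Spred2 measured 10.1 against 6.00 FPKM, a ratio of 1.68 (95% counting interval 1.199 to 2.39). Dusp6, for a phosphatase that switches off ERK, measured 37.6 against 34.8 FPKM and Spry1, for a feedback inhibitor, 19.9 against 18.9 FPKM. They were the highest of the list, whose median log2 ratio was 0.02.

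**Figure D4:**
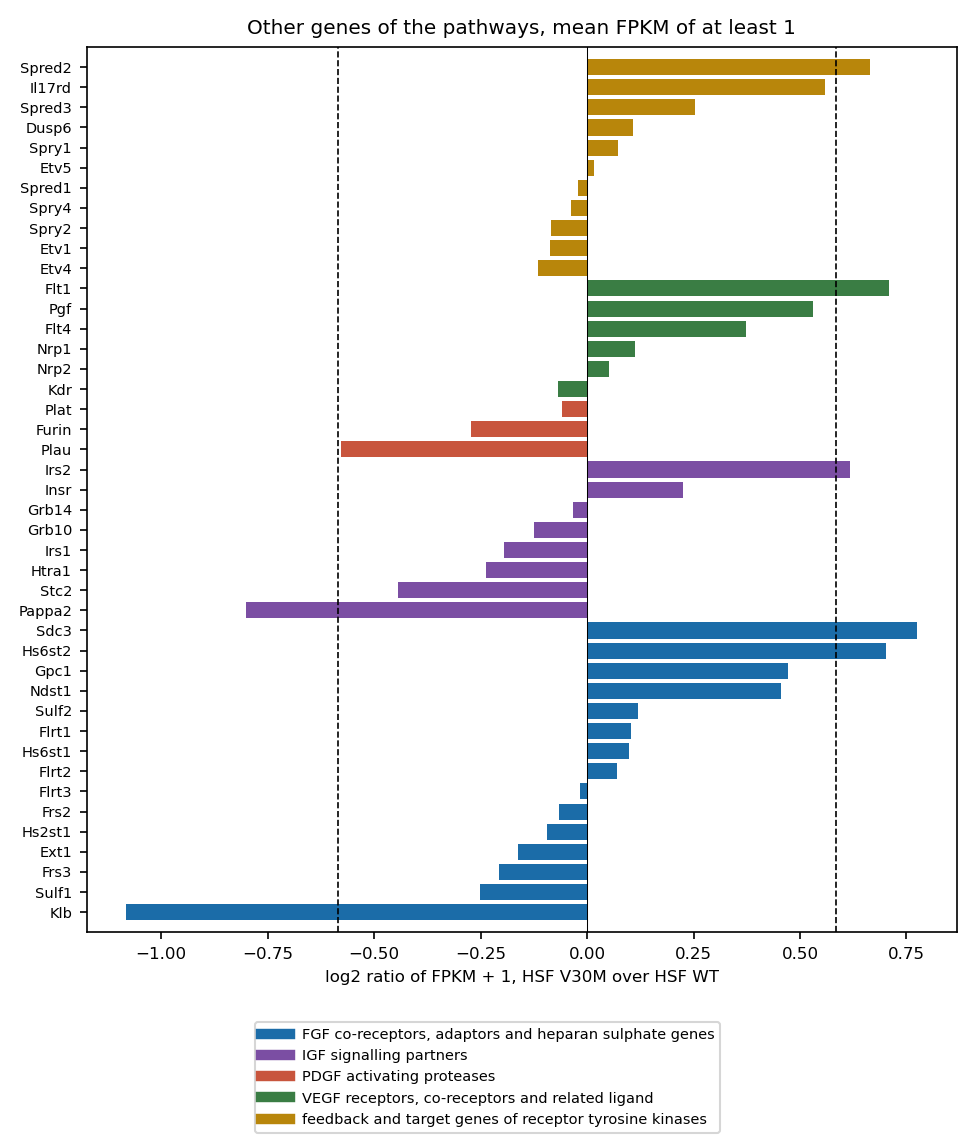
Bars give the log2 ratio of FPKM + 1, HSF V30M over HSF WT, for the 43 other pathway genes averaging 1 FPKM or more, coloured by list, with dashed lines at 1.5-fold. Klb and Pappa2 reach past the lower limit and Sdc3, Flt1, Hs6st2, Spred2 and Irs2 past the upper one.

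Of the 9 genes that came in by symbol alone, 6 averaged 1 FPKM or more. None of these 6 was past the fold, against 16.7% of all genes. The messenger RNA binding proteins of fetal tissue had the largest shifts, Igf2bp1 with 3.79 against 2.46 FPKM and Igf2bp3 with 2.54 against 1.66 FPKM. Their FPKM ratios were 1.54 (95% counting interval 1.34 to 1.77) and 1.53 (1.21 to 1.94), and on the FPKM + 1 scale both were within the limit. Igf2bp2, which adult tissue also expresses, measured 7.14 against 8.28 FPKM, a ratio of 0.862 (0.749 to 0.992). Fgfr1op2 (19.9 against 22.2 FPKM), Fgfr1op (4.93 against 4.78 FPKM) and Igflr1 (3.27 against 3.40 FPKM) had intervals that held 1. Igfn1 measured 0.0700 against 0.103 FPKM and Igfbpl1 0 against 0.0604 FPKM, and Igfl3 is listed at 0 in both groups.

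Marker lists of other tissues and cells were counted in the same way, beside the 16.7% of all genes past the fold, and their part in the values of the growth factor genes was not tested. All 8 skeletal muscle genes averaging 1 FPKM or more were past the fold downwards (list sum 48.2 against 173 FPKM), as were all 4 such B cell genes (2.34 against 22.7) and 3 of 5 mast cell genes (127 against 199). Past it upwards were 5 of 5 neutrophil genes (102 against 25.1) and 4 of 5 erythrocyte genes (184 against 72.8). Of 2 platelet genes 1 was past it upwards, with list sums that were close (57.1 against 57.4). Smooth muscle and pericyte genes had 2 upwards and 2 downwards of 8 (697 against 1307). Of these 8, 5 had a ratio above 1 and 3 below, with a median log2 ratio of 0.12. Their sum depends strongly on the highest gene of the list, which averaged 787 FPKM over both groups. At or near the share of all genes were macrophage genes, 1 of 8 downwards (351 against 475), perineurium genes, 1 of 6 upwards (553 against 460), and Schwann cell genes, 1 upwards and 1 downwards of 12 (12804 against 11196). The Schwann cell genes past the fold were S100b upwards, with 328 against 201 FPKM, and Gfap downwards, with 2.28 against 8.77 FPKM. The macrophage list still leaned downwards, 6 of 8 with a ratio below 1 and a median log2 ratio of -0.45. The perineurium list leaned upwards, 5 of 6 with a ratio above 1 and a median of 0.29. Alb, the only liver gene above the minimum, was past it downwards (list sum 3.61 against 4.92), and 4 of the 8 liver genes are listed at 0 in 1 group and Fga in both.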

How the data were processed

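RNA of sciatic nerve from 4 mice, 2 per group, was sequenced with Ion Torrent libraries. STAR, Cufflinks and Cuffdiff with GRCm38 are named in the submitters' processing notes, and their versions are not given in the sources used here. The authors deposited 1 Cuffdiff table, in which the FPKM of a group is the estimate over its libraries. Decimal commas were read as points. The columns of fold change, test statistic, p-value, q-value and call hold the authors' own comparison and were not used. Genes without an estimate (23) were left out.

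The design called for a description without a test. Named were members averaging 1 FPKM or more, members under it that were highest in their role or at 0 in 1 group, and of the lists the genes past the fold and the highest. Other members under the minimum, Kdr, Plau, marker genes past the fold, Pecam1 and Col1a1 were named in addition, after their values were seen. The members and lists were chosen with earlier results of these data known. Symbols excluded by the rule are not reported here.

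The worth of 1 fragment was read from low values of genes alone in their locus, with 1 transcript of 400 to 1200 bases shortened by 200. In HSF WT 98.2% of 1055 low values lay within 2% of whole fragments, and in HSF V30M, whose values are rounded, 99.3% of 706 within 5%, a weak check. By this, the libraries of HSF WT were 1.35-fold and those of HSF V30M 1.18-fold apart in depth, and the deeper HSF V30M library was 1.23-fold above the deeper HSF WT library. Total counts were not used here. Fragment ranges run from the shortest coding transcript to the longest, and exact conditional Poisson intervals use the smallest number. A floor is 3 fragments on the shortest transcript.

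Positions and transcripts are from GENCODE M21, which has all 63 identifiers, and for 58 the locus in the table holds the annotated gene. Exons of 19 members overlap another gene. The steps were tested on simulated data. Calculations used matplotlib 3.10.9, scipy 1.17.1, pandas 2.3.3 and numpy 2.4.6 under Python 3.11.15. Alternatives were other pseudocounts, minimums and folds, and median-of-ratios scaling.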

Additional observations from a re-analysis of the deposited data

How the results depend on the processing

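No paired analysis was possible because only group values were at hand, 1 per gene, and leaving out a mouse could not be done either. Igfbp2 and Vegfb were also the members past the fold with median-of-ratios scaling and without a minimum. With a pseudocount of 0.1 there were 5, adding Igf2bp1 upwards and Fgf10 and Fgfbp1 downwards, and with no pseudocount 6, adding Igf2bp3 upwards too. Only 1 passed among genes averaging 5 FPKM or more (Vegfb, since Igfbp2 is below that level), and only 1 passed a fold of 2 (Igfbp2). Of the 43 other pathway genes, 11 in place of 7 were past the fold with a pseudocount of 0.1 or none, and 1 with a fold of 2. At 11 their share was above that of all genes given below, and at 1 it was below the 7.92% of all genes. These differences were not tested. Over all genes the count was 2603, with 1378 among those averaging 5 FPKM or more and 1237 at a fold of 2, where fewer pass by construction. The share of all genes past the fold was 21.7% with a pseudocount of 0.1. With none it was 19.9%, over the 15121 genes above 0 in both groups only. The median log2 ratio of the members stayed between -0.02 and 0.05. Depth limits Igfbp2 in HSF WT and the members under 1 FPKM.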

Other observations

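Fgf3 and Fgf4, neighbours on chromosome 7 that are known mainly from the embryo, both had fragments in adult nerve. For Fgf4 the coding transcripts start from 395 bases in length, so that its value stands for anything from 17 to 328 fragments in HSF WT, and for Fgf3 from 599 bases, or 5 to 38 fragments. Which transcript carried the fragments was not tested.

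The antisense transcripts were low in both groups. Fgf2os measured 0.240 against 0.455 FPKM (HSF V30M against HSF WT) and Igf1os 0.240 against 0.168 FPKM.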
